A study of Rattus norvegicus with 30 samples.

Results

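The comparison described here sets the higher against the lower dose of chlorpromazine hydrochloride after 24 h in cultured rat hepatocytes. It took the 5 arrays titled 20 µM at 24 h and the 5 arrays titled 0.8 µM at 24 h, 10 of the 30 arrays of the study. The cells were primary hepatocytes of male Sprague Dawley rats, bought frozen, plated on collagen, overlaid with Matrigel and dosed on day 3 of culture. Each array measured the RNA of 1 well, and the study held 20 µM, 0.8 µM and vehicle wells (1% DMSO) at both 24 and 48 h, with 5 wells per combination. The titles of the dosed samples do not give their DMSO content. The wells are labelled as independent cultures, and separate animals are not named, so each p-value reflects differences among wells. The arrays were chosen by their labels, and all 11503 named genes that passed a filter on dim signals were tested.

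Chlorpromazine is a phenothiazine antipsychotic, a cationic amphiphilic compound that gathers in lysosomes and is known for cholestatic liver injury. Hepatocytes make bile acids from cholesterol, take them up from blood through sinusoidal carriers and pump them into bile through canalicular ABC transporters. They also burn fatty acids, break down amino acids, make glucose and secrete most plasma proteins. Stress programs of these cells include the amino acid response driven by ATF4, the oxidant response driven by NRF2 and the DNA damage response driven by p53.

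Signals were summarised by the submitters with MAS5, floored at 16 and log2 transformed, and all levels below are log2 signals. A difference is the mean of the 20 µM arrays minus the mean of the 0.8 µM arrays, given with its SE from limma and a p-value adjusted over all 11503 genes. A gene changed, rose or fell where that adjusted p was under 0.05. Array medians ran from 379 to 433 at 20 µM and from 399 to 431 at 0.8 µM. The 11 hepatocyte markers tested had a summed signal of 562353 to 778414 at 20 µM and 610923 to 745322 at 0.8 µM. The brightest genes weigh most in such a sum. Of the 11, 3 fell and none rose: Cyp2e1 (-0.61 ± 0.09), Apob (-0.40 ± 0.08) and Tat (-0.22 ± 0.07). Without replicate 1 at 0.8 µM 2 fell.

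Among the 24 h arrays, 1 at 0.8 µM and 1 vehicle array stood apart from their groups. Replicate 1 at 0.8 µM lay at -0.285 on the second principal component, and the other 4 arrays at 0.8 µM lay between -15.74 and -9.79. The 20 µM arrays at 24 h lay between -11.94 and -8.79 on it. On the first component, which held 16.04% of the variance, the 20 µM arrays lay between 14.7 and 19.1 and the 0.8 µM arrays between -14.6 and -1.40. Replicate 1 at 0.8 µM was the array at -14.6, the farthest from the 20 µM arrays, and the other 4 lay between -5.08 and -1.40. The doses lay apart with or without counting that array. Vehicle replicate 5 at 24 h lay at -1.238 on the second component, and the other 4 vehicle arrays between -19.12 and -11.98; it enters the comparison of the doses only through the shared estimate of spread. Without replicate 1 at 0.8 µM, 20 of the 170 changed genes followed by name lost their call, and they are listed in the closing section. Such losses were not particular to that array. Leaving out another array of the 10 ended between 12 (replicate 4 at 0.8 µM) and 20 (replicate 4 at 20 µM) of these calls. The count over all genes without replicate 1 at 0.8 µM is given below.

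Between the doses, 1797 genes changed at 24 h (15.6% of those tested), 999 of them higher at 20 µM (8.68%) and 798 lower (6.94%). The counts of list members below are to be read beside these shares of all genes. The median difference over all genes was 0.00. Without replicate 1 at 0.8 µM 1587 genes changed, 887 of them higher. Centring every array on its median shifted the median of all genes by 0.03, and the split became 1183 higher and 599 lower, so that 66.4% in place of 55.6% of the changed genes were higher. Most changes were small: 1561 were under 1.5-fold, 189 lay between 1.5-fold and 2-fold, and 47 (0.409% of the genes) reached 2-fold, 21 higher (0.183%) and 26 lower (0.226%). The arrays of the doses did not overlap for 1410 genes (12.3%): the 5 arrays at 20 µM lay wholly above those at 0.8 µM for 783 (6.81%) and wholly below for 627 (5.45%). For several changed genes described below, no other kept probe set of the gene passed the test: Grb10, Slco1a4, Slco1b2, Slco2b1, Abcg1, Pck2, Elovl6, Acaca, Apob, Pcyt1a, Atp6v0b, Prcp, Aen, Sesn2, Psmb5, Hspa9, Mbl2, Egfr, Anxa3 and Il1r1.

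**Figure D1:**
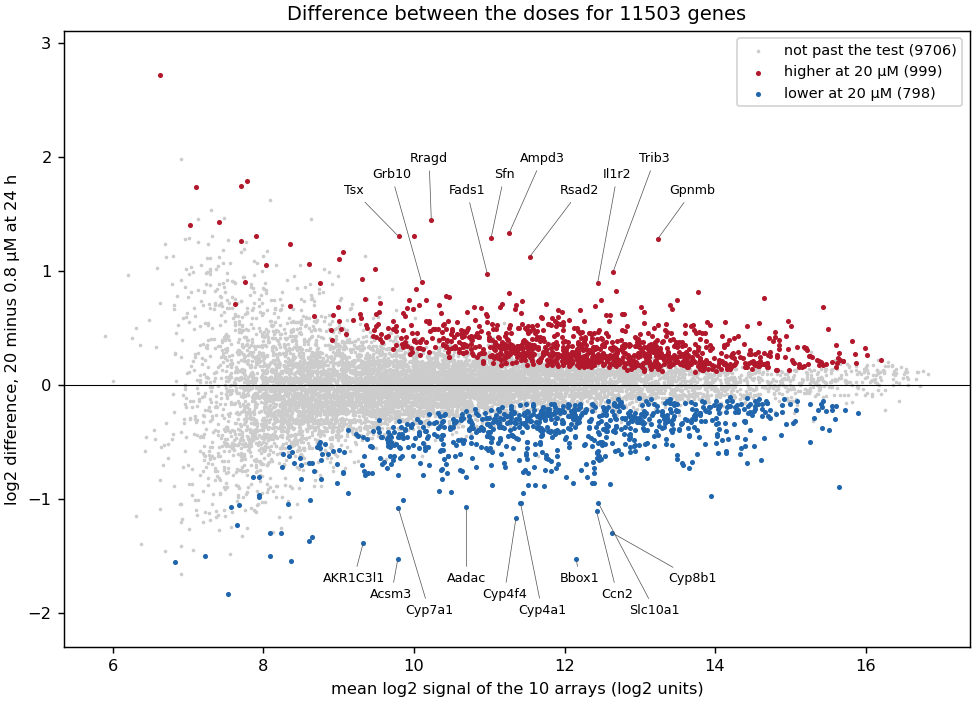
Log2 difference (20 minus 0.8 µM at 24 h, y axis) of each of the 11503 genes against its mean log2 signal over the 10 arrays (x axis). Red points are the 999 genes that rose, blue points the 798 that fell and grey points the rest. The 10 largest rises and 10 largest falls among bright genes without overlap are labelled, and most changed genes lie within 1 log2 unit of 0.

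The largest rise among bright genes whose arrays did not overlap was of Rragd, a Rag GTPase that couples amino acids at the lysosome to mTORC1. Its log2 signals were 10.8, 10.93, 10.94, 11.07 and 11.02 at 20 µM, against 9.14, 9.52, 9.49, 9.62 and 9.79 at 0.8 µM. The groups did not overlap, replicate 1 was the lowest in both, and the difference was 1.44 ± 0.12 (2.71-fold, adjusted p = 2.8e-10). Ampd3, an AMP deaminase, read 11.79, 11.89, 12.08, 11.88 and 11.99 at 20 µM and 10.36, 10.51, 11.01, 10.59 and 10.51 at 0.8 µM. Replicate 3 was the highest in both groups, which stayed apart (1.33 ± 0.13, adjusted p = 4.13e-09). Gpnmb, a glycoprotein of lysosomes and melanosomes, read 13.9, 13.72, 13.89, 13.97 and 13.91 at 20 µM and 12.16, 12.83, 12.72, 12.65 and 12.65 at 0.8 µM. The low value of replicate 1 at 0.8 µM added to the difference of 1.28 ± 0.10, which was 1.17 ± 0.09 without that array.

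Sfn, which encodes 14-3-3 sigma, a p53 target that restrains the cell cycle, had log2 signals of 11.93, 11.57, 11.63, 11.7 and 11.51 at 20 µM, against 10.09, 10.53, 10.49, 10.41 and 10.37 at 0.8 µM. All 5 wells at 20 µM were above all 5 at 0.8 µM, a 2.44-fold difference (adjusted p = 3e-10). Rsad2, an interferon-induced antiviral enzyme, read 12.09, 11.96, 12.27, 12.14 and 11.99 at 20 µM and 10.42, 11.19, 11.63, 10.91 and 10.73 at 0.8 µM. Its 0.8 µM wells were spread over more than 1 log2 unit, its 20 µM wells were close together, and the difference was 1.12 ± 0.23 (adjusted p = 0.00069). Fads1, the delta-5 fatty acid desaturase, read 11.37, 11.65, 11.37, 11.56 and 11.37 at 20 µM and 10.72, 10.04, 10.46, 10.61 and 10.63 at 0.8 µM. The doses did not overlap, with the second 0.8 µM well the lowest of the 10 (0.97 ± 0.14, adjusted p = 4.7e-06). Tsx rose by 1.30 ± 0.18, Grb10, an adaptor that dampens insulin receptor signalling, by 0.90 ± 0.13, and Il1r2, the decoy receptor of interleukin-1, by 0.89 ± 0.13. For Grb10 the other 2 probe sets read 0.08 ± 0.30 and -0.13 ± 0.21 and did not pass the test.

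The deepest fall among such genes was of Bbox1, the last enzyme of carnitine synthesis. It read 11.54, 11.76, 11.27, 11.12 and 11.27 at 20 µM, against 13.53, 12.7, 12.85, 12.59 and 12.94 at 0.8 µM. The groups lay apart even without the high first replicate at 0.8 µM, and the difference was -1.53 ± 0.14 (2.89-fold, adjusted p = 2.72e-09). Acsm3, a medium-chain acyl-CoA synthetase, read 9.07, 9.01, 8.65, 9.02 and 9.36 at 20 µM and 10.86, 10.78, 10.46, 10.58 and 10.1 at 0.8 µM. No well at 20 µM reached the lowest at 0.8 µM (-1.53 ± 0.17, adjusted p = 5.75e-08). Ccn2, a matricellular growth factor and YAP target, read 11.76, 11.76, 11.94, 11.98 and 11.9 at 20 µM and 12.84, 12.91, 13.08, 13.06 and 13.03 at 0.8 µM. The spread within both groups was 0.10 (SD, n = 5 each), and its fall of 1.11 ± 0.07 had the smallest adjusted p of the leading genes, 3.78e-12.

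Other leading falls were of genes of lipid and steroid handling. AKR1C3l1, an aldo-keto reductase gene, fell by 1.39 ± 0.19, Cyp4f4, a fatty acid and eicosanoid hydroxylase, by 1.17 ± 0.12, Aadac, arylacetamide deacetylase, by 1.07 ± 0.14 and Cyp4a1, a fatty acid omega-hydroxylase and PPARalpha target, by 1.04 ± 0.15. In AKR1C3l1, Aadac and Cyp4a1 replicate 1 was the highest of the 0.8 µM wells, and without it the differences were -1.17, -0.96 and -0.89, still past the test. Dim genes, those with a group mean below a log2 signal of 8.09, included others past the test, but the size of their difference depends on signals near background and is not given. Cpeb1 averaged 7.98 ± 0.36 at 20 µM and 5.26 ± 0.94 at 0.8 µM (SD, n = 5), with all 5 arrays at 0.8 µM below that level and 1 of them at the floor. Its mean at 20 µM lay below that level too, with arrays at 8.57, 7.67, 7.73, 7.9 and 8.04. Sult2a6, a bile acid sulfotransferase, lay between 7.15 and 8.18 at 20 µM and between 8.73 and 9.72 at 0.8 µM, and passed the test (adjusted p = 1.27e-06). The other dim genes at the top were Snap91 and Scamp5, higher at 20 µM, and Odad4 and Bdkrb1, lower; Scamp5 lost its call without replicate 1 at 0.8 µM (adjusted p = 0.0535).

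**Figure D2:**
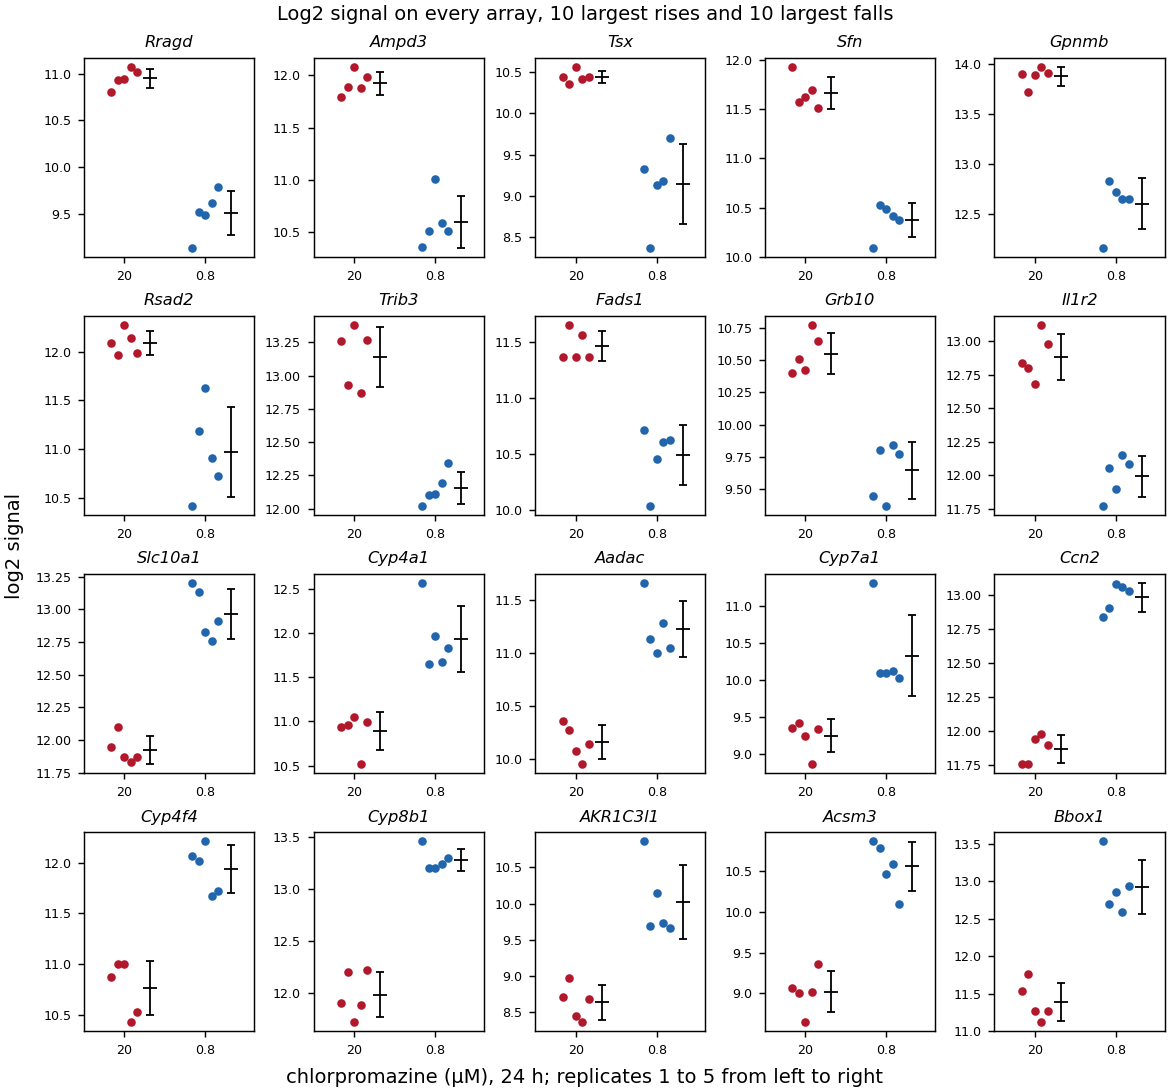
Log2 signal (y axis) of the 10 largest rises among bright genes without overlap (upper panels, ordered by size) and 10 largest falls (lower panels, the largest last) on every array at 20 µM (red) and 0.8 µM (blue), replicates 1 to 5 from left to right, with the mean and SD of 5 arrays in black. The y axes differ between panels and do not start at 0. No panel shows overlap between the doses, and the first 0.8 µM array is the highest or lowest of its group in many panels.

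Genes of bile acid synthesis were lower at 20 µM. Of 14 tested genes of the list 7 fell and none rose, with a median difference of -0.34 over the list. Cyp8b1, the sterol 12-alpha-hydroxylase that sets the cholic acid share, read 11.9, 12.2, 11.72, 11.88 and 12.22 at 20 µM and 13.46, 13.2, 13.2, 13.24 and 13.3 at 0.8 µM. The doses were nearly a log2 unit apart at their nearest wells (-1.30 ± 0.09, 2.46-fold, adjusted p = 2.52e-11). Cyp7a1, the rate-limiting 7-alpha-hydroxylase, read 9.36, 9.43, 9.25, 8.87 and 9.34 at 20 µM and 11.31, 10.1, 10.1, 10.12 and 10.03 at 0.8 µM. Its first 0.8 µM well was more than 1 log2 unit above the other 4, which agreed closely; the difference was -1.08 ± 0.25 with that well and -0.84 ± 0.23 without it (adjusted p = 0.0115). Slc27a5, the bile acid CoA ligase, fell by 0.86 ± 0.15, Akr1d1, the delta-4-3-oxosteroid 5-beta-reductase, by 0.81 ± 0.18, and the peroxisomal side-chain enzymes Acox2 and Hsd17b4 by 0.54 ± 0.08 and 0.39 ± 0.06.

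Sinusoidal uptake carriers were lower as well, 4 of 9 tested with none higher. Slc10a1, the sodium-taurocholate cotransporter NTCP, read 11.95, 12.1, 11.87, 11.83 and 11.87 at 20 µM and 13.2, 13.13, 12.83, 12.76 and 12.91 at 0.8 µM. All wells at 20 µM were below all wells at 0.8 µM, a 2.06-fold difference (adjusted p = 6.68e-08). The organic anion carriers Slco1a4 and Slco2b1 fell by 0.76 ± 0.14 and 0.50 ± 0.12, but the other Slco2b1 probe set read -0.04 ± 0.12. Slco1b2 fell by 0.46 ± 0.15, a call that ended without any of 7 single arrays (-0.51 to -0.32). Export pumps were split: of 13 tested, 2 rose and 4 fell. Abcc2, the canalicular conjugate pump MRP2, read 15.2, 15.1, 15.32, 15.3 and 15.41 at 20 µM and 14.74, 14.67, 14.78, 14.76 and 14.81 at 0.8 µM, without overlap (0.51 ± 0.05, adjusted p = 6.22e-09). Abcb1a, a P-glycoprotein, rose by 0.55 ± 0.15. Abcb4, the phosphatidylcholine floppase of bile, fell by 0.56 ± 0.09, Abcg1, a sterol exporter, by 0.63 ± 0.10 and Abcb11, the bile salt export pump, by 0.15 ± 0.04. With the arrays centred, Abcb11 did not pass the test (-0.12, adjusted p = 0.114).

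Of 8 tested genes of bile acid feedback, 2 fell: Nr1h4, the bile acid receptor FXR, by 0.38 ± 0.07 and Nr1i3, the xenobiotic receptor CAR, by 0.48 ± 0.08. Nr0b2, the repressor SHP, was dim, averaging 8.10 ± 0.71 at 20 µM and 7.47 ± 0.49 at 0.8 µM (SD, n = 5 each), and did not pass the test (adjusted p = 0.552).

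Of 21 tested constitutive cytochrome P450 and flavin monooxygenase genes 10 fell and 1 rose, with a median of -0.23, and none rose without replicate 1 at 0.8 µM. Cyp2d3 averaged 11.95 ± 0.12 at 20 µM and 12.82 ± 0.13 at 0.8 µM (SD, n = 5; -0.86 ± 0.08, adjusted p = 4.61e-09). Cyp2e1, which oxidises ethanol and small solvents, fell by 0.61 ± 0.09, and Cyp2c11, the main male-specific P450 of rat liver, by 0.52 ± 0.09. Of 14 esterases and reductases 8 fell, among them Akr1c1 (-1.04 ± 0.14) and Ces1d, a carboxylesterase (-0.88 ± 0.16). Hsd17b2, which oxidises estradiol and testosterone, rose by 0.51 ± 0.10. Of 23 conjugating enzymes 3 fell and 1 rose, beside 6.94% and 8.68% of all genes, and with quantile normalization 6 fell. Of 11 tested CAR and PXR targets 2 rose and 3 fell: Cyp3a18 fell by 0.57 ± 0.07, and Cyp3a23-3a1 averaged 16.41 ± 0.14 at 20 µM and 16.32 ± 0.08 at 0.8 µM (SD, n = 5 each; adjusted p = 0.464).

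Targets of the aryl hydrocarbon receptor rose in 6 of 8 tested, with a median of 0.38, and 2 of the 8 were dim. Without replicate 1 at 0.8 µM 5 rose, and at 48 h 3 rose. Among the 6 was Nfe2l2, the NRF2 gene, which is given with the NRF2 targets below. Nqo1, a quinone reductase shared by this receptor and NRF2, read 15.72, 15.7, 15.86, 15.74 and 15.9 at 20 µM and 15.23, 15.02, 15.08, 15.13 and 15.06 at 0.8 µM, with no overlap (0.68 ± 0.05, 1.6-fold, adjusted p = 9.74e-11). Cyp1b1 rose by 0.93 ± 0.25 and Tiparp, a feedback inhibitor of the receptor, by 0.37 ± 0.10. Cyp1a1, the classical target, read 15.98, 15.85, 16.26, 16.23 and 16.41 at 20 µM and 15.75, 15.86, 15.81, 16.15 and 15.87 at 0.8 µM. Its groups overlapped, the adjusted p was 0.0499 (0.26 ± 0.09), and the call ended without any of 7 single arrays, among them replicate 1 at 0.8 µM (0.22, adjusted p = 0.131). Cyp1a2 likewise sat at the threshold (0.20 ± 0.07, adjusted p = 0.0467) and lost its call without any of 7 single arrays, with differences of 0.18 to 0.25.

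Genes of energy and nitrogen metabolism were lower at 20 µM in several groups. Fatty acid oxidation enzymes and other PPARalpha targets fell in 14 of 22 tested and rose in none, with a median of -0.30. Beside Bbox1 and Cyp4a1, they included Angptl4, a lipoprotein lipase inhibitor (-0.73 ± 0.13), Cyp4a3 (-0.65 ± 0.11), Hadh, a mitochondrial hydroxyacyl-CoA dehydrogenase (-0.54 ± 0.05), and Acadm, the medium-chain acyl-CoA dehydrogenase (-0.52 ± 0.09). Without replicate 1 at 0.8 µM 12 of the 22 fell. Amino acid catabolism genes fell in 23 of 36 with none higher and a median of -0.35, or in 21 without that array. Bhmt, which remethylates homocysteine with betaine, read 15.11, 15.12, 15.34, 15 and 15.42 at 20 µM and 16.16, 16.03, 15.99, 16.13 and 16.15 at 0.8 µM. The groups were clear of each other (-0.90 ± 0.08, adjusted p = 5.77e-10). Hgd of tyrosine breakdown fell by 0.88 ± 0.09, Aass of lysine breakdown by 0.86 ± 0.07 and Sardh, sarcosine dehydrogenase, by 0.81 ± 0.06.

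Glucose production and glycogen genes followed the same direction, with 6 of 9 lower and 1 higher. Pc, pyruvate carboxylase, read 11.2, 11.09, 11.04, 11.13 and 11.2 at 20 µM and 11.92, 11.88, 11.91, 12.1 and 11.76 at 0.8 µM, close together within each dose and without overlap (-0.78 ± 0.07, adjusted p = 5.83e-10). Gys2, the liver glycogen synthase, fell by 0.75 ± 0.06 and Fbp1, fructose-1,6-bisphosphatase, by 0.68 ± 0.10. The member that rose was Pck2, the mitochondrial PEP carboxykinase (0.74 ± 0.20, adjusted p = 0.00841), which is also a known ATF4 target; its other probe set read 0.33 ± 0.22. In the urea cycle 5 of 10 fell and 1 rose. Gls2, the liver glutaminase, fell by 0.52 ± 0.08. Otc, ornithine transcarbamylase, differed by -0.74 ± 0.25 and lost its call without any of 8 single arrays (-0.82 to -0.62). Of 20 glycolytic genes 3 rose, Eno2 by 0.68 ± 0.17, Pfkp by 0.40 ± 0.07 and Aldoa by 0.24 ± 0.04, and 2 fell. Of 36 nuclear-encoded respiratory chain subunits 4 fell, beside 6.94% of all genes, with a median of -0.02. Without replicate 1 at 0.8 µM 1 fell, and with centred arrays none did.

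Cholesterol synthesis was higher, with 11 of 17 tested enzymes up (10 without replicate 1 at 0.8 µM), none down and a median of 0.25. Cyp51, the lanosterol 14-alpha-demethylase, read 13.72, 13.84, 13.68, 14.12 and 13.99 at 20 µM and 12.91, 13.33, 13.26, 13.15 and 13.03 at 0.8 µM. No 0.8 µM well reached the lowest at 20 µM (0.74 ± 0.09, 1.67-fold, adjusted p = 2.53e-07). Acat2, a cytosolic acetoacetyl-CoA thiolase, rose by 0.66 ± 0.07, Msmo1 by 0.55 ± 0.07, Fdps by 0.49 ± 0.07 and Sqle, squalene epoxidase, by 0.37 ± 0.08. Among sterol sensors, Insig1 rose by 0.29 ± 0.05 and Insig2, both being endoplasmic reticulum anchors of SREBP, fell by 0.39 ± 0.10. Npc2, the lysosomal sterol carrier, rose by 0.35 ± 0.06, and Lipa, the lysosomal acid lipase, fell by 0.19 ± 0.05. In the list of LXR targets and cholesterol efflux 2 of 10 fell, Abcg1 and Lcat, the plasma cholesterol acyltransferase (-0.42 ± 0.05).

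Genes of fatty acid synthesis moved both ways, 5 of 19 up and 4 down. The falls numbered 6 without replicate 1 at 0.8 µM and 2 with centred arrays. Fads1 and the elongase Elovl6 (0.67 ± 0.16) rose, and Acaca, acetyl-CoA carboxylase, fell by 0.63 ± 0.09. Averaging the kept probe sets of Elovl6 gave 0.34, which did not pass the test (adjusted p = 0.162). Of 14 apolipoprotein and lipoprotein assembly genes 5 fell, Mttp, the triglyceride transfer protein, by 0.49 ± 0.07 and Apob by 0.40 ± 0.08. Of 17 lipid droplet genes 1 rose and 4 fell, or 2 each way without replicate 1 at 0.8 µM. Among 18 phospholipid genes Pemt, which methylates phosphatidylethanolamine, fell by 0.42 ± 0.11, Chpt1 fell by 0.23 ± 0.05, and Pcyt1a rose by 0.24 ± 0.07, a call lost without that array (0.21, adjusted p = 0.0688).

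The vacuolar proton pump, which acidifies lysosomes, was higher in 9 of 15 tested subunits (8 without replicate 1 at 0.8 µM) and lower in none, with a median of 0.23. Atp6v0b, a membrane-sector subunit, read 13.11, 13.13, 12.92, 13.13 and 13.21 at 20 µM and 12.39, 12.71, 12.39, 12.55 and 12.35 at 0.8 µM. Its wells separated by dose (0.62 ± 0.08, 1.54-fold, adjusted p = 4.59e-07), while a second probe set of the gene read 0.11 ± 0.19. The cytosolic-sector subunits Atp6v1c1, Atp6v1d and Atp6v1f rose by 0.50 ± 0.08, 0.46 ± 0.08 and 0.41 ± 0.05. Of 29 lysosomal hydrolases and membrane proteins 7 rose and 1 fell, or 4 and 1 without replicate 1 at 0.8 µM. Scarb2, the receptor that carries glucocerebrosidase to lysosomes, rose by 0.33 ± 0.07. Prcp, a lysosomal carboxypeptidase, differed by 1.30 ± 0.42 with an SD of 1.00 at 0.8 µM and lost its call without any of 6 single arrays (0.94 to 1.56), and its other probe set read 0.18 ± 0.16.

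Beside Rragd, 3 of 15 genes of the Rag, folliculin and MiT/TFE list rose: Lamtor3 by 0.27 ± 0.05, Lamtor5 by 0.23 ± 0.04, both subunits of the Ragulator scaffold, and Flcn by 0.22 ± 0.08, whose call ended without any of 7 single arrays. Of 18 autophagy genes 4 rose and 1 fell, and without replicate 1 at 0.8 µM 2 rose. Sqstm1, the autophagy receptor p62, read 15.85, 15.79, 16.07, 16.04 and 16.32 at 20 µM and 15.62, 15.58, 15.58, 15.73 and 15.67 at 0.8 µM, apart by less than 0.1 at the nearest wells (0.38 ± 0.07, adjusted p = 0.000215). Gabarapl1, an ATG8-family protein, rose by 0.38 ± 0.07.

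Targets of ATF4 and CHOP rose in 16 of 30 tested, with 1 lower and a median of 0.32. Trib3, a pseudokinase induced by both factors, read 13.26, 12.93, 13.38, 12.87 and 13.27 at 20 µM and 12.02, 12.1, 12.11, 12.19 and 12.34 at 0.8 µM. The doses did not overlap (0.99 ± 0.11, adjusted p = 8.91e-08). Asns, asparagine synthetase, read 13.4, 13.35, 13.32, 13.35 and 13.36 at 20 µM and 12.72, 12.62, 12.63, 12.63 and 12.76 at 0.8 µM. The wells of each dose lay close together and the doses far apart (0.68 ± 0.07, 1.61-fold, adjusted p = 3.23e-08). Slc7a11, the cystine importer, rose by 0.66 ± 0.08, Chac1, a glutathione-degrading enzyme, by 0.65 ± 0.13, Phgdh, the first enzyme of serine synthesis, by 0.61 ± 0.11, Ddit3, which encodes CHOP, by 0.57 ± 0.12 and Atf4 itself by 0.35 ± 0.04. The member that fell was Cth, cystathionine gamma-lyase (-0.41 ± 0.08). Cytosolic aminoacyl-tRNA synthetases, several of them known ATF4 targets, rose in 11 of 19 tested with none lower, led by Sars1 (0.62 ± 0.11), Yars1 (0.42 ± 0.07) and Aars1 (0.40 ± 0.06).

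NRF2 targets and glutathione genes rose in 12 of 25 tested (14 without replicate 1 at 0.8 µM), with none lower and a median of 0.22. Beside Nqo1 and Slc7a11, Txnrd1, a thioredoxin reductase, rose by 0.46 ± 0.06, Srxn1, sulfiredoxin, by 0.43 ± 0.06 and Gclc, the catalytic subunit of glutathione synthesis, by 0.32 ± 0.07. Hmox1, haem oxygenase, read 15.28, 15.19, 15.38, 15.4 and 15.54 at 20 µM and 14.72, 15.09, 15.08, 15.14 and 15.18 at 0.8 µM. The groups nearly touched, and the difference was 0.32 ± 0.08 with replicate 1 at 0.8 µM and 0.24 ± 0.08 without it (adjusted p = 0.0372). Nfe2l2, which encodes NRF2, rose by 0.39 ± 0.06.

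Promoter sequence was examined for these stress groups because their members moved together. Sequences are from RefSeq on GRCr8, 250 bases before to 50 after each gene's start, and the 250 bases before the start were searched on both strands. The ATF4 response element was written TGATGNAA. It occurred in 4 of 16 changed ATF4 and CHOP targets with a promoter entry (25%) and in 3 of 9 changed synthetases (33.3%). Its share was 179 of the 9570 tested genes (1.87%) and 3.27% of all 27457 promoters. Over all members with an entry it was found in 6 of 28 and 5 of 17. The antioxidant response element was written TGACNNNGC and occurred in 4 of 11 changed NRF2 targets (36.4%) and in 5 of 22 members, against 12.5% of the tested genes and 10.2% of all promoters. The promoters of changed members with a match are shown as 120-base windows in the direction of transcription, with the match in capitals and written as its complement where it lies on the other strand. A match is a description of the sequence and not a shown binding site. Because the ATF4 and NRF2 lists are lists of targets, shares above those of all genes do not bear on the changes here.
Trib3 (chr3:161275534-161275653, minus strand): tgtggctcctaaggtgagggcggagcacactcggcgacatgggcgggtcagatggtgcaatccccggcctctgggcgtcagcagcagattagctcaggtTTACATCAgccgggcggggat
Chac1 (chr3:126795908-126796027, plus strand): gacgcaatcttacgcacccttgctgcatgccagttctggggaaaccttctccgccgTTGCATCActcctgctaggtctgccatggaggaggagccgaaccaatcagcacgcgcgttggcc
Nupr1 (chr1:190645902-190646021, minus strand): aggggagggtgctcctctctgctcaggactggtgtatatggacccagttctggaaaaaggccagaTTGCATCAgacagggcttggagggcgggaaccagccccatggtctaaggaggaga
Slc7a1 (chr12:11664368-11664487, plus strand): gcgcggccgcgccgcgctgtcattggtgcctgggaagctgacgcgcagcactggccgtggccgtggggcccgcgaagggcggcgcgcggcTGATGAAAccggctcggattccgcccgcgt
Aars1 (chr19:55908314-55908433, plus strand): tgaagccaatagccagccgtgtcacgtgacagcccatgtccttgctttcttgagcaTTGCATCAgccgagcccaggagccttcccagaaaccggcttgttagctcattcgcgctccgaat
Iars1 (chr17:15193653-15193772, minus strand): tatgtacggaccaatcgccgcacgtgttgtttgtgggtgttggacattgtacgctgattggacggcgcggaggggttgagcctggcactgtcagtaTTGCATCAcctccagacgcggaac
Mars1 (chr7:65023754-65023873, minus strand): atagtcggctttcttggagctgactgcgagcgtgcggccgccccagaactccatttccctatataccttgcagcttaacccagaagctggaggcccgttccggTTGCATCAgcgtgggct
Gclm (chr2:213031907-213032026, plus strand): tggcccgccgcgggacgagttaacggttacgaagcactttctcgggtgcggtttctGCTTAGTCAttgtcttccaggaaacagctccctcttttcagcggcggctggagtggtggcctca
Gpx2 (chr6:101230034-101230153, minus strand): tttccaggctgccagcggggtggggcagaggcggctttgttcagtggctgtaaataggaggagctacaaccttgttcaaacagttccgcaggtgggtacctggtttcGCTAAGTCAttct
Gstp1 (chr1:210769706-210769825, minus strand): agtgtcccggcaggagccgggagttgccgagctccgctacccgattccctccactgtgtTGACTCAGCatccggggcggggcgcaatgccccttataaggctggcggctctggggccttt
Me1 (chr8:96540348-96540467, minus strand): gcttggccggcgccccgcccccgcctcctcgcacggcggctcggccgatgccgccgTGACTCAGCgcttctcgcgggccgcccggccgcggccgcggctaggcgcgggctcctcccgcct

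The first 7 of these windows carry the ATF4 response element and the last 4 the antioxidant element, and each promoter had 1 match. The matches began between 17 bases (Mars1) and 167 bases (Chac1) before the start for the ATF4 response element. For the antioxidant element they began between 13 bases (Gpx2) and 172 bases (Gclm) before it. At the transcript level Chac1 and Slc7a1, the cationic amino acid carrier, rose by 0.65 ± 0.13 and 0.52 ± 0.12, Nupr1, a stress-induced chromatin protein, by 0.28 ± 0.05, Iars1 by 0.25 ± 0.08 and Mars1 by 0.21 ± 0.06. Gpx2, a glutathione peroxidase, rose by 0.36 ± 0.08, Gstp1, a glutathione transferase, by 0.25 ± 0.05, Gclm, the modifier subunit of glutathione synthesis, by 0.24 ± 0.06 and Me1, malic enzyme, by 0.21 ± 0.06. Of the other motifs searched, TNGCGTG (aryl hydrocarbon receptor) was in 1 of 5 changed targets against 6.65% of tested genes, GGNCAAAG (nuclear receptor DR1) in 1 of 11 changed fatty acid oxidation genes and 1 of 18 changed amino acid catabolism genes against 5.14%, and TCACGTG (MiT/TFE factors) in 1 of 7 changed proton pump genes, 0 of 7 changed lysosome genes and 0 of 2 changed Rag and TFE genes against 4.8%. GGNCAAAG was in 0 of 5 changed bile acid synthesis genes. TCACNCCAC (SREBP) was in none of 8 changed cholesterol synthesis and none of 6 changed fatty acid synthesis genes in this window, against 0.961% of tested genes.

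Targets of p53 rose in 10 of 19 tested and fell in 1, with a median of 0.22. Mdm2, the ubiquitin ligase of p53, read 12, 12, 12.08, 12.1 and 12.19 at 20 µM and 11.65, 11.57, 11.7, 11.7 and 11.6 at 0.8 µM, with no overlap (0.43 ± 0.06, adjusted p = 3.34e-06). Beside Sfn, Sesn2, a stress-induced mTORC1 inhibitor also induced by ATF4, rose by 0.70 ± 0.11 (another probe set read -0.27 ± 0.57) and Aen, an apoptotic exonuclease, by 0.52 ± 0.08. Sesn1, the related sestrin, fell by 0.65 ± 0.07. Cdkn1a, the cell cycle inhibitor p21, averaged 12.69 ± 0.25 at 20 µM and 12.62 ± 0.10 at 0.8 µM (SD, n = 5 each) and did not pass the test (0.07 ± 0.09, adjusted p = 0.68).

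Chaperones of the endoplasmic reticulum did not share this direction: of 26 tested 1 rose and 6 fell, or 3 fell with centred arrays. Hspa5, the chaperone BiP, read 15.5, 15.5, 15.5, 15.47 and 15.59 at 20 µM and 15.36, 15.46, 15.4, 15.45 and 15.5 at 0.8 µM. The groups overlapped (0.08 ± 0.04, adjusted p = 0.236). Dnajc3, an inhibitor of the kinase PERK, rose by 0.28 ± 0.05, and Hsp90b1, the chaperone GRP94, fell by 0.29 ± 0.05. Of 14 cytosolic and mitochondrial heat shock genes Hspb8 (0.42 ± 0.05), Hsp90ab1 (0.38 ± 0.08) and Hspa9 (0.18 ± 0.05) rose and Hspa1a fell by 0.51 ± 0.12. Proteasome subunits rose in 7 of 31 tested with none lower, each by under 0.3. Of these Psma5 rose by 0.27 ± 0.04, and Psmb5 (0.26 ± 0.09) read -0.04 when its kept probe sets were averaged. The calls of Psmb5, Psmc3 and Psmd4 ended without any of 6, 7 and 7 single arrays.

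Secreted proteins of the blood cascades were lower, 15 of 26 coagulation, kallikrein and complement factors with none higher and a median of -0.28. Klkb1, plasma prekallikrein, read 10.72, 10.98, 11.32, 10.77 and 11.09 at 20 µM and 11.87, 11.98, 11.73, 11.96 and 12.08 at 0.8 µM. The highest 20 µM well stayed below the lowest at 0.8 µM (-0.95 ± 0.13, 1.93-fold, adjusted p = 2.77e-06). C4bpa, a complement regulator, fell by 0.53 ± 0.07, Mbl2, mannose-binding lectin, by 0.45 ± 0.09 (-0.12 ± 0.07 on its other probe set) and Serpinf2, antiplasmin, by 0.44 ± 0.07. Of 22 acute phase and plasma proteins 1 rose, Lbp, which binds lipopolysaccharide (0.51 ± 0.07), and 3 fell, 1 of them with centred arrays. Alb, albumin, averaged 16.61 ± 0.32 at 20 µM and 16.47 ± 0.20 at 0.8 µM (SD, n = 5 each; adjusted p = 0.568).

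Among 21 hepatocyte transcription factors 5 fell and none rose: Foxa1 by 0.73 ± 0.17, Nr1i3 as above, Cebpa by 0.40 ± 0.11, Klf15 by 0.39 ± 0.09 and Nr1h4 as above. Hnf4a, a central factor of hepatocyte identity, differed by 0.04 (adjusted p = 0.743). Of 16 growth hormone, IGF and insulin signalling genes 3 fell: Egfr by 0.40 ± 0.07, Ghr, the growth hormone receptor, by 0.38 ± 0.07 and Igf1 by 0.34 ± 0.05. Annexins, galectins and cytoskeleton genes that cultured hepatocytes gain were higher in 9 of 21 and lower in 1. Anxa5 rose by 0.70 ± 0.11, Lgals3, galectin-3, by 0.54 ± 0.06 and Anxa3 by 0.52 ± 0.08, although averaging the probe sets of Anxa3 did not pass the test (0.61, adjusted p = 0.0714). Of 9 tubulins 1 rose, Tubb5 by 0.48 ± 0.07, beside 8.68% of all genes.

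Inflammatory genes moved both ways. Of 19 chemokine, interleukin-1 and NF-kappaB genes 3 rose and 3 fell, beside 8.68% and 6.94% of all genes. Il1r2 had the largest difference of those that changed. Of 17 interferon-stimulated genes 2 rose, Rsad2 and Tap1 (0.39 ± 0.12), beside 8.68% of all genes. Without replicate 1 at 0.8 µM 1 of the 17 rose and 3 fell. Of 19 replication and mitosis genes Pcna, the polymerase clamp and a p53 target, rose by 0.30 ± 0.05 and Tk1, thymidine kinase, fell by 0.39 ± 0.11.

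Markers of other liver cells were summed within each list and compared between the doses. In a whole well, fewer cells of a type and less RNA per cell cannot be told apart. The 13 of 16 Kupffer cell markers tested summed to 26825 to 30917 at 20 µM and 30584 to 32384 at 0.8 µM, and 1 of them passed the test, Lyz2, lysozyme (-0.30 ± 0.07). The 9 of 14 stellate markers summed to 4102 to 5040 at 20 µM and 4815 to 5652 at 0.8 µM, and the 7 of 12 endothelial markers to 2168 to 2844 at 20 µM and 2650 to 3176 at 0.8 µM. The 3 of 10 cholangiocyte markers summed to 9545 to 11012 at 20 µM and 8870 to 10131 at 0.8 µM. The Kupffer markers Ptprc and Coro1a, the stellate markers Col1a2 and Pdgfrb, the endothelial markers Pecam1, Tek, Stab2 and Flt1 and the cholangiocyte marker Krt19 were dim. The stellate, endothelial and cholangiocyte lists had no member past the test, and the part of other cells in the results above was not tested.

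**Figure D3:**
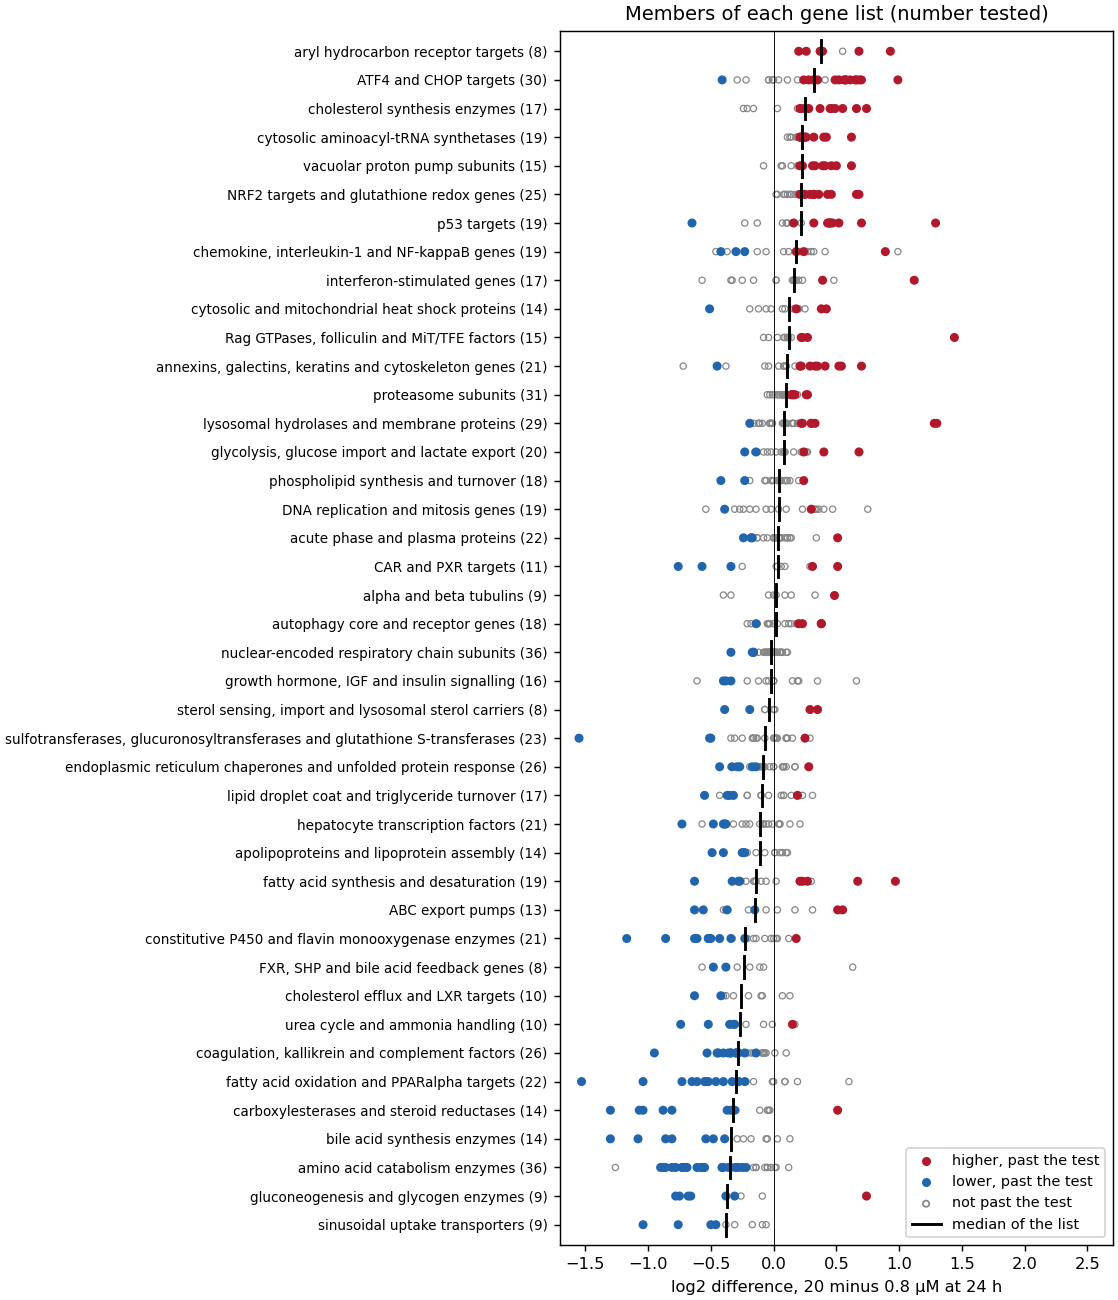
Log2 difference (20 minus 0.8 µM at 24 h, x axis) of every tested member of the gene lists, ordered by list median (black bar). Filled red points rose, filled blue points fell and open grey points did not pass the test. Aryl hydrocarbon receptor, ATF4 and CHOP, and cholesterol synthesis genes have the highest medians, and uptake carriers, glucose production and amino acid catabolism genes the lowest.

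The vehicle wells place these differences on a 3-step scale, with the caution that the comparisons share arrays. The 0.8 µM mean lay between the vehicle and 20 µM means for 615 of the 999 rises and 595 of the 798 falls. For the other changed genes the 3 means did not follow the order of dose. At 20 µM against vehicle, Hmox1 (0.17 ± 0.08, adjusted p = 0.142) and Tat (-0.13 ± 0.07, adjusted p = 0.202) did not pass the test. Against vehicle, 2738 genes changed at 20 µM (23.8%) and 95 at 0.8 µM (0.826%). The count at 0.8 µM was unsteady. It was 147 without replicate 1 at 0.8 µM, and 21, 16, 34 and 38 without replicates 2, 3, 4 and 5 at that dose. It was 72, 62, 72, 16 and 46 without vehicle replicates 1 to 5, and 22 in a fit of the 15 arrays at 24 h. Vehicle replicate 2 is titled 2 h although its time entry gives 24 h. Without single vehicle arrays the count at 20 µM was 2476 to 2635. Of the named genes that changed at 0.8 µM, Cyp1a1, Nqo1, Il1r1, Cyp8b1 and Cyp2d3 kept their call without any 1 of the 10 arrays of these groups.

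Cyp1a1 averaged 15.19 in vehicle, 15.89 at 0.8 µM and 16.15 at 20 µM wells. Its step between vehicle and 0.8 µM was 0.70 ± 0.09 (adjusted p = 5.47e-05; 0.64 to 0.74 without single arrays) and its step between 0.8 and 20 µM was the 0.26 ± 0.09 given above. Nqo1 stepped by 0.35 ± 0.05 and then by 0.68 ± 0.05. Il1r1, the signalling receptor of interleukin-1, stepped by 0.43 ± 0.07 and 0.24 ± 0.07; its call between the doses ended without replicate 1 or replicate 5 at 20 µM (0.22 to 0.3). Cyp8b1 averaged 13.79 in vehicle, 13.28 at 0.8 µM and 11.98 at 20 µM, so it was below vehicle at the lower dose too (-0.51 ± 0.09, adjusted p = 0.00489), as was Cyp2d3 (-0.47 ± 0.08).

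Cxcl1, a neutrophil chemokine, read 11.35, 11.06, 10.67, 10.44 and 10.96 in vehicle wells, 11.58, 11.32, 11.62, 11.51 and 11.54 at 0.8 µM and 11.64, 11.5, 11.61, 11.52 and 11.71 at 20 µM. The vehicle wells were the most spread, and the difference between the doses was 0.08 ± 0.13 (adjusted p = 0.757). Its step to 0.8 µM was 0.61 ± 0.13, a call that ended without any of 5 single arrays (0.5 to 0.73). The steps of Cyp1a2 (0.33 ± 0.07), Klkb1 (-0.58 ± 0.13), Pc (-0.29 ± 0.07) and Hspa5 (-0.18 ± 0.04) ended without any of 2, 7, 5 and 7 single arrays.

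Maz, a zinc finger factor, averaged 8.44 in vehicle, 9.54 at 0.8 µM and 8.86 at 20 µM, with a step to 0.8 µM of 1.11 ± 0.25, a call that ended without any of 6 single arrays (0.95 to 1.27). Its difference between the doses was -0.68 ± 0.25 (adjusted p = 0.0643). Nuak2, an AMPK-related kinase, averaged 9.86 in vehicle, 8.91 at 0.8 µM and 9.47 at 20 µM. Its step was -0.96 ± 0.19, a call that ended without any of 3 single arrays (-1.08 to -0.78), and its difference between the doses was 0.57 ± 0.19 (adjusted p = 0.0438).

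**Figure D4:**
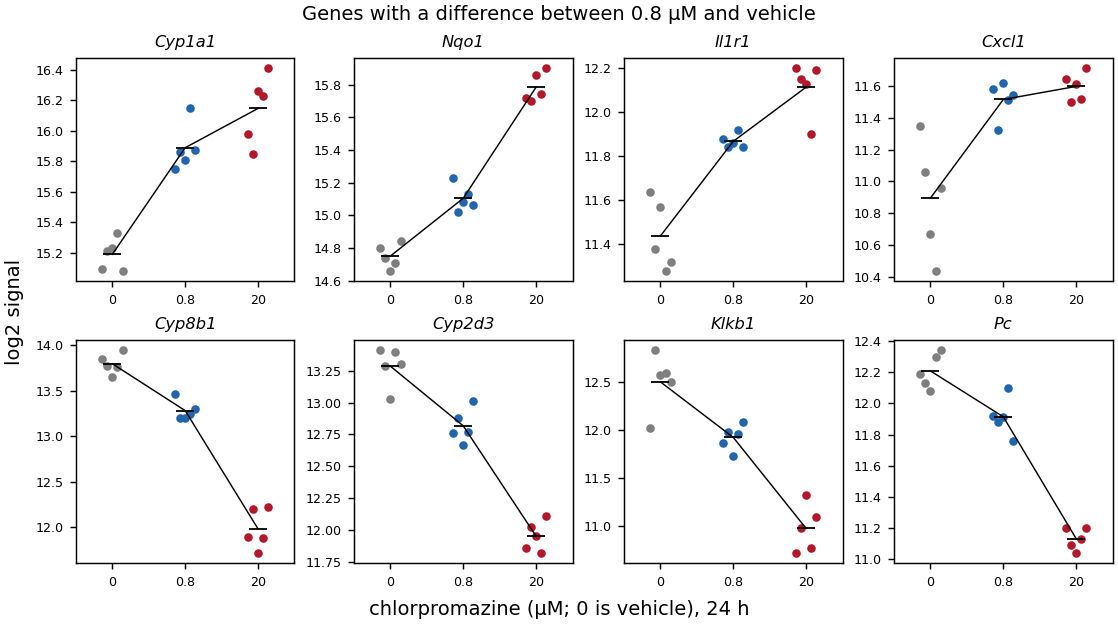
Log2 signal (y axis) in vehicle (0 µM, grey), 0.8 µM (blue) and 20 µM (red) wells at 24 h for 8 genes that changed at 0.8 µM against vehicle; points are arrays and the black line joins the group means. The doses are evenly spaced and not to scale, and the y axes do not start at 0. Cyp1a1 and Cxcl1 have their larger step between vehicle and 0.8 µM, and Cyp8b1, Pc and Nqo1 between 0.8 and 20 µM.

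At 48 h, in other wells, the same dose comparison changed 3097 genes (26.9%), 1673 higher (14.5%) and 1424 lower (12.4%), and 190 of them by 2-fold or more (1.65%). Of the 999 genes that rose at 24 h, 776 also rose at 48 h (77.7%) and none fell. Of the 798 that fell, 648 also fell (81.2%). The single gene that passed both tests in opposite directions was Usf2, picked out here for that reason (-0.45 ± 0.12 at 24 h and 0.32 ± 0.12 at 48 h). The 1424 genes shared in direction were 46.0% of those changed at 48 h. Bile acid synthesis genes fell in 10 of 14 at 48 h and rose in 1, with a median of -0.72. Coagulation and complement factors fell in 21 of 26 and rose in none, and ATF4 and CHOP targets rose in 22 of 30 and fell in 3.

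The difference between the doses itself differed between the times for 166 genes (1.44%), 50 higher (0.435%) and 116 lower (1.01%) at 48 h. Cyp2e1 differed by -0.61 ± 0.09 at 24 h and by -2.11 ± 0.09 at 48 h, a change of -1.50 ± 0.13 (adjusted p = 8.55e-09). Its difference was larger at 48 h. Ces1d stood at -0.88 ± 0.16 at 24 h and -2.56 ± 0.16 at 48 h, and Cyp4a1 at -1.04 ± 0.15 and -2.57 ± 0.15. Of the genes with a larger rise at 48 h, Sfn stood at 1.29 ± 0.11 and 2.26 ± 0.11 and Eno2 at 0.68 ± 0.17 and 1.85 ± 0.17. Hamp, the iron hormone hepcidin, and Cd68, a lysosomal glycoprotein of macrophages, did not pass the test at 24 h (0.34 ± 0.25 and 0.09 ± 0.13). At 48 h they were higher at 20 than at 0.8 µM (1.75 ± 0.25 and 1.39 ± 0.13). Hamp averaged 13.7 at 24 h and 13.62 at 48 h at 20 µM, against 13.36 and 11.87 at 0.8 µM. Cd68 averaged 10.74 and 11.24 at 20 µM, against 10.65 and 9.85 at 0.8 µM. Of the 13 Kupffer markers tested 1 rose and 2 fell at 48 h, with a median of -0.226, and Lyz2 stood at -0.71 ± 0.07.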

How the data were processed

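Each of the 30 arrays measured biotin-labelled cRNA from 1 well, and the 10 arrays at 20 and 0.8 µM and 24 h are the ones compared. The authors deposited 1 linear intensity for each probe set, computed with MAS5 (version not given) per the submitters' processing notes; the trimmed mean of every array was about 1501. Of 31099 probe sets 57 were controls. The platform annotation gave 20826 probe sets 1 gene symbol and 436 several, and did not list 9780. Of those with 1 symbol 20758 were matched by Entrez identifier to the GRCr8 gene table of RefSeq.

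Signals were floored at 16, log2 transformed and not normalized further. In the 10 arrays 4.04% of values lay below the floor. A probe set was kept if it exceeded the 40th percentile of its own array on at least 5 arrays (21226 kept, 5550 of them without a single name and left out), and the brightest kept probe set on average stood for each gene, which left 11503 genes. limma 3.58.1 in R 4.3.3 fitted 6 group means over all 30 arrays (eBayes with a trend, Benjamini-Hochberg adjustment over all genes), and a fold is the antilog of the log2 difference. Groups follow the labelled dose and time. Vehicle replicate 2 at 24 h is titled 2 h, and its time entry of 24 h was used. Replicate numbers follow accession order and pair nothing. The number of arrays limits the precision.

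The genes described were the 10 largest rises and 10 largest falls among changed bright genes with no overlap of arrays, 3 dim genes each way, up to 4 changed members of each list, a fixed panel, up to 5 genes each way whose difference changed between the times or that changed at 0.8 µM against vehicle, and 2 unnamed probe sets each way (given by value); other list members are given with values. Usf2 was chosen after its values were seen. Some panel genes were not analysed here. The members, lists, motifs and rules were chosen with earlier results of these data known, so no list is independent support for its own direction.

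The fit was tested on simulated data of 11503 genes: of 50 genes changed by each size it called 15 at 1.25-fold, 35 at 1.5-fold, 41 at 2-fold and 49 at 4-fold, with 4 false calls among 144. The simulated noise was normal and independent between genes, no array was set apart, and a smaller share of genes changed than in the data. These counts check the code and are not error rates of the real comparison. Alternatives covered the floor, filter, normalization, spread model, array weights, arrays in the fit, summary of probe sets, threshold and leaving out each of the 10 arrays compared and, for all but replicate 2 after the data had been seen, each vehicle array at 24 h. Arrays at 48 h were not left out one by one.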

Additional observations from a re-analysis of the deposited data

Results flagged for a closer look

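In 88 checks of single arrays within a group of 5, 6 values, on 3 different arrays, lay far from the other 4 of their group, and chance flags about 1 in 20 such groups. Of these, 4 were on replicate 1 at 0.8 µM: Gpnmb was 12.16 there against 12.65 to 12.83 on the others, Cyp7a1 11.31 against 10.03 to 10.12, Hmox1 14.72 against 15.08 to 15.18 and Atf3 10.91 against 11.5 to 11.63. The other 2 were Cyp4a1 on replicate 4 at 20 µM (10.52 against 10.94 to 11.05) and Hspa5 on replicate 5 at 20 µM (15.59 against 15.47 to 15.5). Without replicate 1 at 0.8 µM, 20 of the 170 changed genes followed by name lost their call: Apoc4, Asah1, Atg12, Becn1, Calr, Cyp1a1, Flcn, Mgll, Ndufb5, Ndufv1, Otc, Pcyt1a, Plin5, Prcp, Psmd4, Scamp5, Sdha, Slco1b2, Tap1 and Tat, with adjusted p-values between 0.0535 (Scamp5) and 0.191 (Flcn). Gpnmb, Cyp7a1, Hmox1 and Atf3 kept theirs. Leaving out another array of the 10 ended 12 to 20 of the 170 calls.

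The difference between the doses was larger at 48 h than at 24 h, by the test of that change itself, for Hamp (1.41, adjusted p = 0.0305), Cd68 (1.30, adjusted p = 4.04e-05), Eno2 (1.17, adjusted p = 0.00509), Sfn (0.97, adjusted p = 0.000186) and Cflar, an inhibitor of death receptor signalling (0.97, adjusted p = 0.0317). By the same test it lay further below 0 at 48 h for Ces1d (-1.68, adjusted p = 2.39e-05), Cyp4a1 (-1.52, adjusted p = 6e-05) and Cyp2e1 (-1.50, adjusted p = 8.55e-09). Otc stood at -0.74 at 24 h and -2.23 at 48 h (-1.49, adjusted p = 0.0211). Akr1c1 stood at -1.04 at 24 h and -2.45 at 48 h (-1.42, adjusted p = 8.77e-05).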

How the results depend on the processing

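The 1797 genes changed between the doses became 1074 at an adjusted p under 0.01 (586 higher, 488 lower), and the 166 genes whose difference changed between the times became 68. Array weights gave 294 of the last kind. Leaving out single arrays of the 10 gave 1487 to 1759 changed genes, 808 to 990 higher and 673 to 769 lower, and leaving out single vehicle arrays at 24 h gave 1778 to 1865. The 95 genes changed at 0.8 µM against vehicle became 16 to 147 without single arrays and 22 with the 15 arrays at 24 h, alternatives added after the data had been seen. Psmb5 reversed to -0.04 with the mean of its kept probe sets. A replicate block by runs of 6 array numbers gave 1895 changed genes; this number is an order of arrays and not a pairing of wells. Of 170 changed genes followed by name, 122 kept their call in all settings other than leaving out arrays and 139 without any single array of the 10. Of the other probe sets of such genes, 33 were called the same way, 34 were not called and none was called the other way. Signals near background limit the dim genes, and MAS5 scaling sets every level relative to its array.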

Other observations

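Unnamed probe sets were tested in a fit of all 31042 non-control probe sets, added after the data had been seen. In it 2119 changed (6.83%), 1089 higher and 1030 lower. Of the 10216 without a single name 364 changed, 130 higher and 234 lower at 20 µM. Of these, the 2 largest rises were 0.98 ± 0.14 (10.13 at 20 µM and 9.16 at 0.8 µM) and 0.96 ± 0.15 (10.81 at 20 µM and 9.85 at 0.8 µM). The 2 largest falls were -1.22 ± 0.09 (12.38 at 20 µM and 13.61 at 0.8 µM) and -1.07 ± 0.08 (12.6 at 20 µM and 13.67 at 0.8 µM).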
